A study of Mus musculus with 3 samples.

Results

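Genes for ion channel subunits were examined in islet cells of NOD/ShiLtJ mice labelled IRE1[alpha][beta]-/- (2 mice; knockout from here on means cells so labelled) and of a mouse labelled IRE1[alpha]fl/fl (control; 1 mouse). The members were taken by name alone: every listed gene starting with Kcn, Cacn, Clcn, Trpm, Trpc, Trpv or Hcn, or with Scn or Ano followed by a digit. This rule found 48 of the 8193 genes listed for beta cells, 1 of 186 for alpha cells and 1 of 231 for delta cells. The rule takes 185 gene names in the GENCODE M21 annotation, 180 of them protein coding. All mice were 5 weeks old and all, the control included, had been given tamoxifen at 10 mg per ml over 5 days. Tamoxifen serves to switch on Cre, but the control's genotype label names no Cre, so its presence in that mouse cannot be told from the label. The Cre line that drives the deletion is not given in the sources used here. NOD mice develop autoimmune diabetes spontaneously, and IRE1α is a sensor of unfolded protein in the endoplasmic reticulum.

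Values are mean unique molecular identifiers (UMIs) per cell in droplet libraries of islets, where 1 UMI stands for 1 captured transcript. They were not divided by gene length or scaled for depth, so genes are not ranked against each other by level. The cell numbers were recovered from the values, as the smallest that turn them into whole UMIs. The knockout beta-cell value pools 815 cells of both knockout mice, and the control value comes from 829 cells of the single control mouse. Listed genes summed to 24796 UMIs per knockout beta cell and 31552 per control beta cell, of which Ins1, Ins2 and Iapp made up 53.9% in the knockout and 69.9% in the control. A ratio is knockout over control, and its bracketed interval is the exact 95% interval from the UMI counts, which covers counting error only. With 1 control mouse there was no test of the beta-cell differences, and a ratio of at least 1.5 either way stands in for a call. The targeted gene went against the label in UMIs per beta cell: Ern1, which encodes IRE1α, had 0.742 per knockout cell and 0.509 per control cell. Its ratio of 1.46 [1.29 to 1.66] was level with the median of all listed genes, at a log2 distance of 0.004. Where the deletion lies in the gene is not given in the sources used here, so these tags may fall outside it, and they do not check the label. Every direction below rests on the labels. Beta-cell defining genes were present but lower: 6 of 8 such markers were listed, and all 6 had fewer UMIs per knockout cell. Their ratios ran from 0.364 for Mafa to 0.684 for Ins2. They summed to 13364 UMIs per knockout cell and 22059 per control cell, nearly all of it from Ins1, Ins2 and Iapp.

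Beta cells are electrically excitable. Glucose metabolism closes ATP-sensitive potassium channels, the membrane depolarises, voltage-gated sodium and calcium channels open, and the calcium that enters triggers insulin release. Voltage-gated and calcium-activated potassium channels then repolarise the cell, while leak potassium channels and nonselective cation channels of the TRP family set how readily it fires.

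The TRPM family held the single lower channel gene, Trpm5, beside Trpm7, close to the control, and Trpm2, higher in the knockout. Their promoter windows are shown for that reason, each 250 bases before and 50 after the annotated start, from RefSeq on GRCm38.p6, 5′ to 3′ on the gene's own strand (minus for all 3). Trpm4, also listed and near the control, had no window at hand, so the windows shown do not cover every listed TRPM gene. Trpm5 is at chr7:143094593-143094892, Trpm2 at chr10:77969823-77970122 and Trpm7 at chr2:126876212-126876511. Capitals mark ACGTG or its reverse complement CACGT, the core of sites that spliced XBP1, the product of IRE1α activity, is known to bind; CACGTG holds both and is also an E-box.
Trpm5: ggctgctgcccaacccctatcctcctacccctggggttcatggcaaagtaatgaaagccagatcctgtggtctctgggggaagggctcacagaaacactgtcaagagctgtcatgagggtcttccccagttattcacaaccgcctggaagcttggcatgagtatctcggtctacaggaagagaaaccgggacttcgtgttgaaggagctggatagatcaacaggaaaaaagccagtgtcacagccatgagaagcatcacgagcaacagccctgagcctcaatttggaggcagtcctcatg
Trpm2: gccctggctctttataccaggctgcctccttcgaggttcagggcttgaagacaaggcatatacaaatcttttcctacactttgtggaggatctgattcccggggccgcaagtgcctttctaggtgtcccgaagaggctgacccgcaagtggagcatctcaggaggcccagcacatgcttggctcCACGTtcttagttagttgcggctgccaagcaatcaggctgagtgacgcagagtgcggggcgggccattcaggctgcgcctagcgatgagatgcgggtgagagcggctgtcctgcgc
Trpm7: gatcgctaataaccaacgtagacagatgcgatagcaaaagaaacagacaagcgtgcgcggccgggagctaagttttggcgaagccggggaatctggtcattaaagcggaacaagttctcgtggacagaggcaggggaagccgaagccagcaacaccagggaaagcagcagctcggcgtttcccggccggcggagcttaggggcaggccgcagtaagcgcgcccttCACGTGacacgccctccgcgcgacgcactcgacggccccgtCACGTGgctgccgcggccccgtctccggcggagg
The Trpm5 window held no match, the Trpm2 window 1 match, and the Trpm7 window 4 matches in 2 stretches of CACGTG. Of the 48 members, 33 had at least 1 window in the table, 48 windows in all, and 8 of these windows (16.7%) held a match on either strand. Among all 32851 windows the share was 19.6%. A match is a run of letters and not a measured binding site.

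In beta cells, 47 of the 48 ion channel genes had more UMIs per knockout cell than per control cell, and Trpm5 had fewer. This direction was shared by the table as a whole, in which 7780 of the 8193 listed genes were higher. At a ratio of at least 1.5, 31 members were higher and 1 was lower, against 45.7% and 2.47% of all listed genes. The members' median log2 ratio was 0.86, and that of all listed genes was 0.54. After centring on the latter, 20 members were higher and 1 was lower by the same fold, against 16.0% and 4.19% of all listed genes. Summed over the 48 genes there were 17.3 UMIs per knockout cell and 13.1 per control cell.

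**Figure D1:**
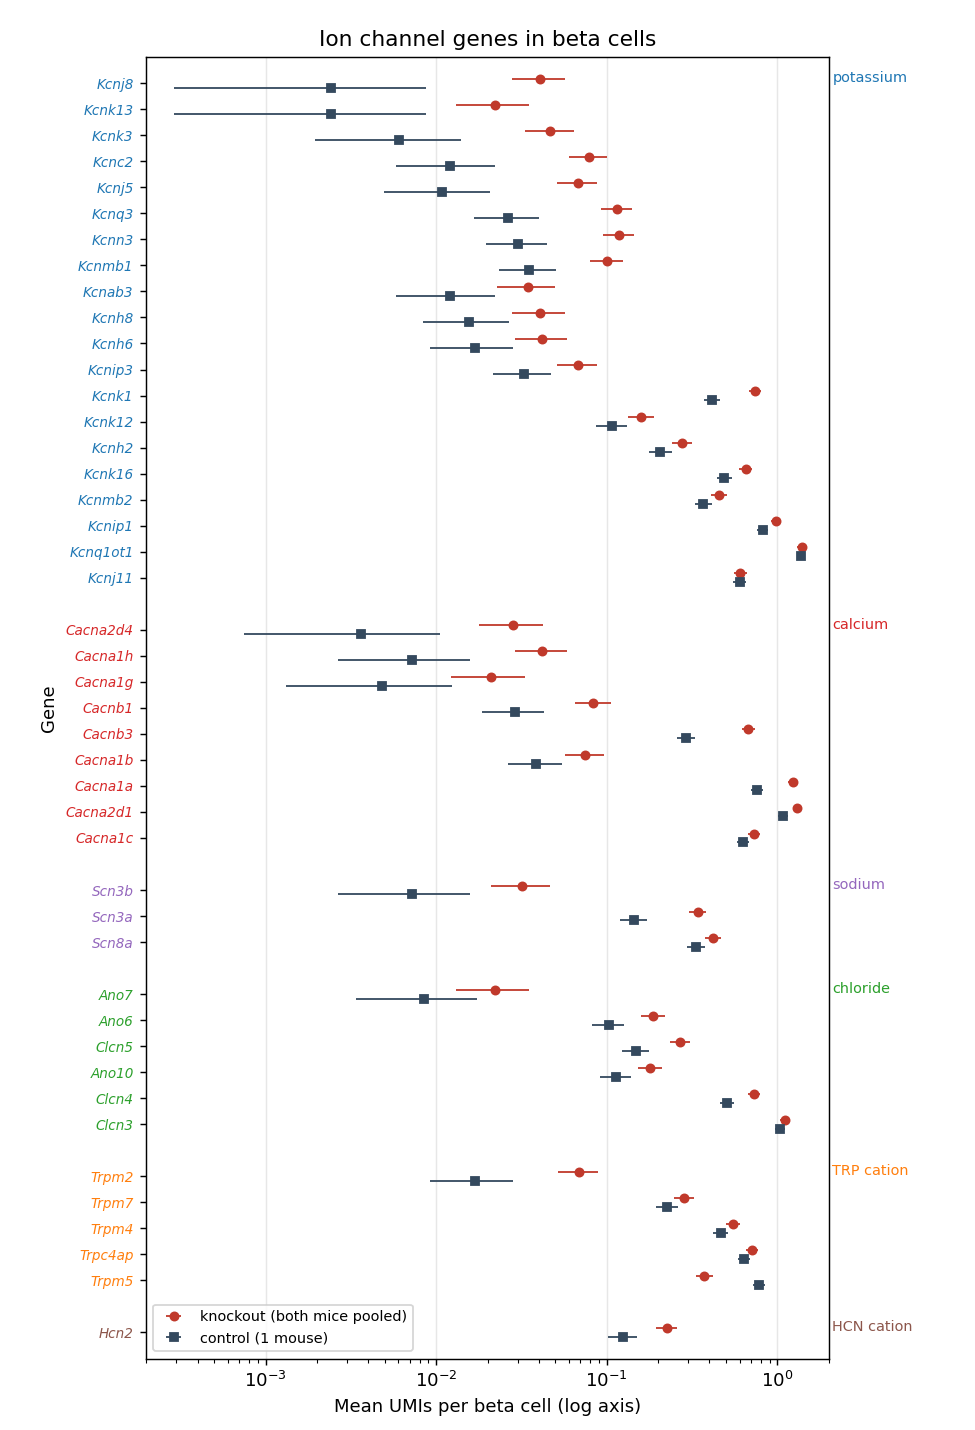
Mean UMIs per beta cell (log axis) of 44 of the 48 members, grouped by ion, in knockout (circles, both mice pooled) and control (squares, 1 mouse); bars are exact 95% Poisson intervals of the counts. Trpm5 is the only gene with its knockout value left of its control value, and the widest gaps are among genes under 0.1 UMIs per cell.

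How far a member stood from the control went with how many transcripts it had. All listed beta-cell genes had an authors' q of at most 0.00998, which a gene with few UMIs can reach only at a large ratio. This link therefore cannot be told apart from the way genes came to be listed. The 21 members averaging under 0.1 UMIs per cell over both groups were all past a ratio of 1.5, with a median log2 ratio of 2.02, but so were 1324 of the 1405 listed genes in that range (median 1.36). For the 27 members at 0.1 or above, the median was 0.42, beside 0.47 for the 6788 listed genes in that range. Of these 27, 10 were higher and 1 was lower by the fold of 1.5, against 35.6% and 2.28% of listed genes of that range. Set against the median of genes in their own range of level, 25 of the 48 members lay above it, with a median distance of 0.07. The better measured channels were thus close to the listed genes around them as a group, and the individual genes are described from here on.

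**Figure D2:**
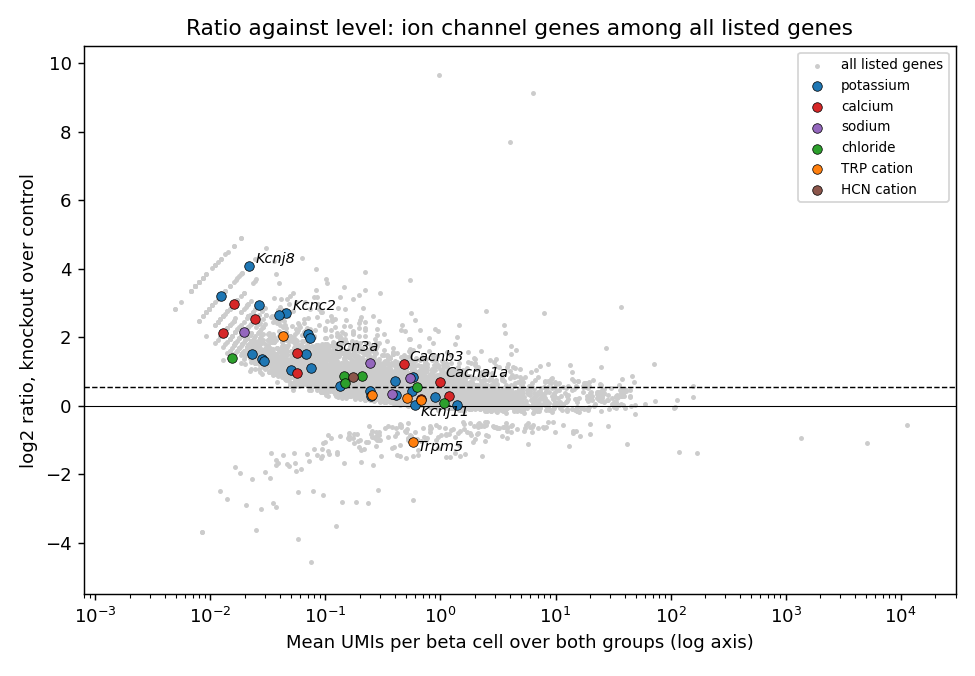
The log2 ratio of knockout over control against the mean UMIs per beta cell over both groups (log axis), for the members (coloured by ion) and for all listed genes with UMIs in both groups (grey); the dashed line is the median of all listed genes, 0.54. Members follow the grey cloud, highest at the left, with Trpm5 below 0 and Kcnj11 at 0.01.

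The listing itself left a band with no genes. Among the 2829 listed genes with 0.3 to 1 UMIs per cell, no ratio lay between 0.711 and 0.927, with 49 genes below this band and 2780 above it. A ratio near 1 therefore lies at the low edge of the genes above the band and not at its centre. Which test the authors used is not given in the sources used here. Channel genes that fall within the band, or that were not listed for another reason, were not analysed here.

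Among the potassium channels, 23 names were listed and each had more UMIs per knockout cell, with 15 past the fold of 1.5, against 45.7% of all listed genes (median log2 ratio 1.11). Set against listed genes of their own level, the median was -0.01 and 10 of the 23 lay above it. The inward rectifiers spanned the whole range of the potassium genes. Kcnj11 (ENSMUSG00000096146, mm10 chromosome 7, 46093953 to 46100764, minus strand), the pore of the ATP-sensitive channel that couples glucose to firing, had 0.607 UMIs per knockout cell and 0.603 per control cell. This gave a ratio of 1.01 [0.888 to 1.14], and its direction depended on the scaling, with a log2 ratio of 0.36 after scaling to the listed total and -0.53 after centring on all listed genes. Abcc8, the sulfonylurea receptor that completes the same channel and lies 3758 bases away, had 3.71 UMIs per knockout cell and 2.94 per control cell, a ratio of 1.26 [1.2 to 1.33]. Among the 2829 listed genes of similar level, 61 had a lower ratio than Kcnj11, and 49 of these were the genes below the empty band. Abcc8 was higher per cell and below the median of all listed genes, but its log2 ratio was 0.14 above the median of genes of its own level.

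The other inward rectifiers were rare. Kcnj8, which encodes the pore of the vascular form of the ATP-sensitive channel and is known as a marker of pericytes, had 33 UMIs over all knockout cells and 2 over all control cells, or 0.0405 and 0.00241 per cell. Its ratio of 16.8 [4.29 to 144] was the highest of all members. Kcnj5, a G-protein-gated rectifier subunit, had 0.0675 UMIs per knockout cell and 0.0109 per control cell, a ratio of 6.22 [3.05 to 14.3]. Mesenchymal markers differed in the same cells: 3 of 5 were listed, all higher, summing to 0.108 UMIs per knockout cell and 0.00844 per control cell, with Col1a1 at 0 in the control. Their part in the Kcnj8 value was not tested.

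Of the tandem-pore leak channels, all 5 listed genes were higher. Kcnk1 (mm10 chromosome 8, 125995170 to 126030685) had 0.744 UMIs per knockout cell and 0.415 per control cell, a ratio of 1.79 [1.57 to 2.05], and only 272 of the 2829 listed genes of similar level had a higher one. Kcnk16, an islet channel that damps calcium entry in beta cells, had 0.654 UMIs per knockout cell and 0.489 per control cell, a ratio of 1.34 [1.17 to 1.53] that lay at the middle of its range. Kcnk12 and Kcnk13 encode a pair of related halothane-inhibited subunits. Kcnk12 had a ratio of 1.49 [1.13 to 1.97], and Kcnk13, with 18 UMIs over all knockout cells and 2 over all control cells, one of 9.15 [2.19 to 81.4]. Kcnk3 is described with the alpha cells.

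Among the voltage-gated potassium channels, Kcnc2, a pore gene of a fast-repolarising family, had 0.0785 UMIs per knockout cell and 0.0121 per control cell, a ratio of 6.51 [3.32 to 14.2]. Kcnc2 was high for its level, with 28 of 928 listed genes of its range above it. Kcnq3, a subunit of the M-type channel, which opens near rest and restrains firing, had 0.114 UMIs per knockout cell and 0.0265 per control cell, a ratio of 4.30 [2.68 to 7.19]. The ether-a-go-go relatives Kcnh2, Kcnh6 and Kcnh8 had ratios of 1.34 [1.1 to 1.65], 2.47 [1.29 to 4.98] and 2.58 [1.32 to 5.35], each below the median of listed genes of its own range.

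Accessory potassium channel genes were also listed. Kcnip1, a calcium-binding partner of rapidly inactivating channels, had 0.980 UMIs per knockout cell and 0.821 per control cell, a ratio of 1.19 [1.08 to 1.32]. Its relative Kcnip3 had a ratio of 2.07 [1.28 to 3.42], and Kcnab3, a cytoplasmic beta subunit, one of 2.85 [1.34 to 6.57]. Of the subunits that tune the large-conductance calcium-activated channel, Kcnmb2 had a ratio of 1.24 [1.06 to 1.44] and Kcnmb1 one of 2.88 [1.86 to 4.56]. Kcnmb1 lies within the annotated span of Kcnip1 on the other strand, and whether counting used the strand is not stated, so their reads may not be fully separate. Kcnn3, the pore of a small-conductance calcium-activated channel, had 0.118 UMIs per knockout cell and 0.0302 per control cell, a ratio of 3.91 [2.49 to 6.33]. The name rule also took Kcnq1ot1, a noncoding RNA antisense to Kcnq1 and no subunit, at 1.39 UMIs per knockout cell and 1.38 per control cell.

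Calcium channel genes had a median log2 ratio of 1.21 over 9 genes, all higher and 7 of them by the fold of 1.5, against 45.7% of all listed genes. Relative to genes of their own level the median was 0.26, with 6 of the 9 above. The order of the calcium, potassium and sodium medians changed with the filter, at 0.96, 1.08 and 1.03 for members with at least 30 UMIs. Calcium channel genes with more UMIs were on the whole nearer the control than the rarer ones, as among all listed genes. Relative to genes of their own level, Cacnb3 and Cacna1a lay above the median, by 0.78 and 0.26. Cacna1c, Cacna2d1 and Cacna1b lay below it. Cacna1c, the pore of an L-type channel that serves insulin release, had 0.729 UMIs per knockout cell and 0.630 per control cell, a ratio of 1.16 [1.03 to 1.30], below the median of all listed genes. Cacna1a (ENSMUSG00000034656, mm10 chromosome 8, 84388440 to 84640246, plus strand), the pore of the P/Q-type channel, had 1.23 UMIs per knockout cell and 0.761 per control cell, a ratio of 1.61 [1.46 to 1.79]. Cacna1b of the N-type channel had a ratio of 1.94 [1.24 to 3.07]. The T-type pores Cacna1g and Cacna1h, which open at low voltage, rested on 17 and 34 UMIs over all knockout cells and 4 and 6 over all control cells, giving ratios of 4.32 [1.41 to 17.7] and 5.76 [2.39 to 16.8].

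The cytoplasmic calcium channel beta subunits bring the pore to the membrane and tune its gating. Cacnb3 (ENSMUSG00000003352, mm10 chromosome 15, 98630840 to 98644529, plus strand) had 0.676 UMIs per knockout cell and 0.292 per control cell, or 551 and 242 UMIs over all cells. Its ratio was 2.32 [1.99 to 2.71], and 77 of 2829 listed genes of similar level had a higher one. It stayed past the fold of 1.5 after centring on the median of all listed genes, at 1.59 times that median, as did Scn3a among the members of at least 0.1 UMIs per cell and no other. Cacnb1 was rarer, with a ratio of 2.88 [1.79 to 4.80]. Of the extracellular subunits that raise the number of channels at the surface, Cacna2d1 had 1.31 UMIs per knockout cell and 1.08 per control cell (ratio 1.21 [1.11 to 1.32]), while Cacna2d4 had 23 UMIs over all knockout cells and 3 over all control cells (ratio 7.8 [2.36 to 40.6]).

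All 4 sodium channel genes were higher in the knockout, with a median log2 ratio of 1.03, or 0.31 relative to genes of their own level. Scn3a (mm10 chromosome 2, 65457118 to 65567627, minus strand), a pore gene of islet cells, had 0.341 UMIs per knockout cell and 0.144 per control cell, a ratio of 2.38 [1.91 to 2.97]. Its relative Scn8a had 0.422 UMIs per knockout cell and 0.333 per control cell, a ratio of 1.27 [1.08 to 1.49], below the median of listed genes. The auxiliary Scn3b, which modulates gating, rested on 26 UMIs over all knockout cells and 6 over all control cells (ratio 4.41 [1.77 to 13.1]).

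**Figure D3:**
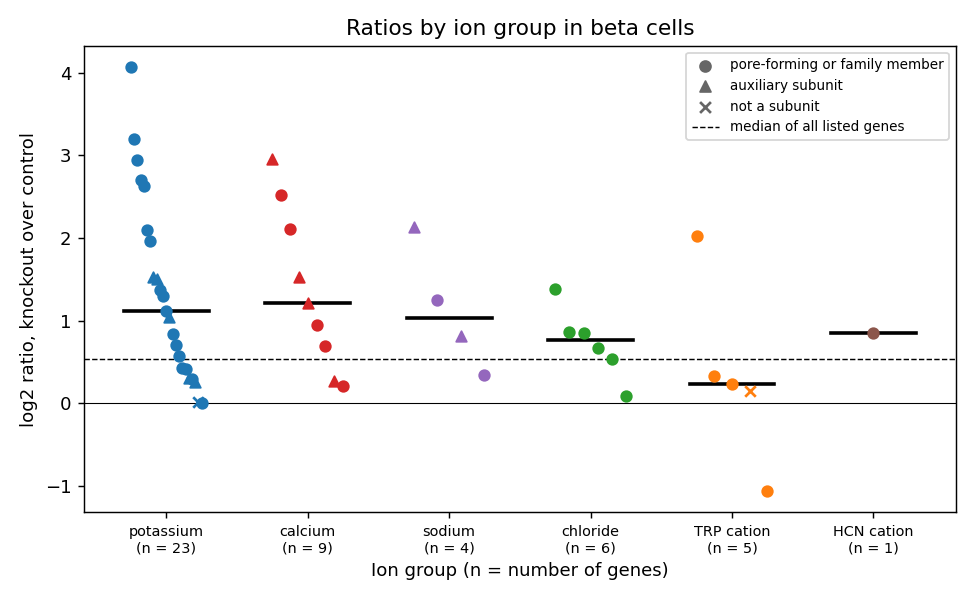
The log2 ratio of knockout over control in beta cells for each member, by ion group; circles are pore-forming genes and family relatives, triangles auxiliary subunits, crosses names that are not subunits, short bars group medians, and the dashed line the median of all listed genes. The medians run from 0.24 for TRP genes to 1.21 for calcium channel genes.

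The chloride group held 6 genes, all higher, with a median log2 ratio of 0.76, or 0.07 relative to genes of their own level. Clcn3, Clcn4 and Clcn5 encode chloride/proton exchangers of endosomes and related vesicles. Clcn3 had 1.11 UMIs per knockout cell and 1.04 per control cell (ratio 1.07 [0.971 to 1.17]), Clcn4 had 0.734 and 0.505 (1.45 [1.28 to 1.65]), and Clcn5 had 0.269 and 0.148 (1.81 [1.45 to 2.28]). Clcn3 was below the median of listed genes of its level, and Clcn4 and Clcn5 were above theirs. Of the anoctamins, Ano6, a calcium-activated lipid scramblase that also passes ions, had a ratio of 1.82 [1.39 to 2.40], Ano10 one of 1.59 [1.22 to 2.08] and Ano7, with 18 UMIs over all knockout cells and 7 over all control cells, one of 2.62 [1.04 to 7.41].

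The TRP group had a median log2 ratio of 0.24 over 5 genes, which lay at -0.30 after centring on all listed genes and at -0.28 relative to genes of their own level. Trpm5 (ENSMUSG00000009246, mm10 chromosome 7, 143069153 to 143094642, minus strand), whose promoter is shown above, encodes a calcium-activated cation channel known from taste cells and from beta cells. It had 0.373 UMIs per knockout cell and 0.778 per control cell, or 304 and 645 UMIs over all cells. The ratio was 0.479 [0.417 to 0.550], and 12 of 2829 listed genes of similar level had a lower one. Only 49 of those 2829 genes lay below the empty band left by the listing, Trpm5 among them, so this rank is one within the 49. Trpm5 was lower under each scaling tried, with log2 ratios of -1.06 as deposited, -0.71 after scaling to the listed total, -1.33 after leaving Ins1, Ins2 and Iapp out of that total and -1.60 after centring. Tssc4 lies inside the annotated span of Trpm5 on the other strand and had 1.14 UMIs per knockout cell and 1.13 per control cell.

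The closest relative of Trpm5 did not share this difference. Trpm4, also a calcium-activated channel for monovalent cations, had 0.551 UMIs per knockout cell and 0.467 per control cell, a ratio of 1.18 [1.03 to 1.36] with an interval apart from that of Trpm5. Trpm7, a channel fused to a kinase that passes magnesium, had 0.285 UMIs per knockout cell and 0.227 per control cell (ratio 1.26 [1.03 to 1.53]). Trpm2, opened by ADP-ribose and oxidative stress, had 0.0687 UMIs per knockout cell and 0.0169 per control cell (ratio 4.07 [2.24 to 7.91]). Trpc4ap encodes a protein that binds a TRP channel and is no subunit itself, and had a ratio of 1.11 [0.988 to 1.25]. Hcn2, a pacemaker channel gated by cyclic nucleotides and the single gene of its group, had 0.225 UMIs per knockout cell and 0.124 per control cell, a ratio of 1.81 [1.41 to 2.32].

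By role, the 35 pore-forming genes and family relatives had a median log2 ratio of 0.86, and the 11 auxiliary subunits one of 1.21. Against the median of genes of their own level, these became 0.11 and 0.24.

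Genes that work with the channels in stimulus-secretion coupling, a list of 72 names of which 56 were listed, sat at the middle of the table. Of these, 53 were higher and 3 lower, with a median log2 ratio of 0.51, or -0.03 after centring. By the fold of 1.5, 21 (37.5%) were higher and 1 lower, against 45.7% and 2.47% of all listed genes. Relative to genes of their own level the median was 0.07, with 34 of the 56 above. The channel genes had the same median on that measure, with 25 of 48 above. The lowest was Slc2a2, the glucose transporter of beta cells, at 0.119 UMIs per knockout cell and 0.271 per control cell (ratio 0.439 [0.342 to 0.559]). Vamp2 of the fusion machinery (0.978 [0.913 to 1.05]) and the plasma membrane calcium pump gene Atp2b1 (1.02 [0.947 to 1.1]) were also among the 4 lowest. The highest were Dpp6, an accessory subunit of transient potassium channels, at 0.189 UMIs per knockout cell and 0.0157 per control cell (12.0 [6.84 to 23.1]), and the mechanosensitive channel gene Piezo1, which rested on a single control UMI. Itpr2, a calcium release channel of the endoplasmic reticulum, and Fxyd3, a regulator of the sodium pump, followed at 4.53 [2.76 to 7.76] and 4.5 [3.32 to 6.20].

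In alpha cells the single channel gene listed was Kcnk3 (ENSMUSG00000049265, mm10 chromosome 5, 30588170 to 30625271, plus strand), an acid-sensitive leak potassium channel. It had 0.822 and 0.870 UMIs per cell in the first and second knockout column and 0.627 in the control. Both knockout values were above the control, with a mean of 0.846 ± 0.0337 (SD, n = 2), and the ratios were 1.31 [1.03 to 1.69] and 1.39 [1.06 to 1.82]. Fitted over the 3 columns, the quasi-likelihood test of edgeR on the 186 listed genes gave it an adjusted p of 0.542 with higher values in 2 of 2 knockout mice, and called 4 genes (2.15%), all lower. That test has 1 residual degree of freedom and ran on genes already listed for differing in these cells. Most listed alpha-cell genes lay the other way, with 80 of 186 higher and a median log2 ratio of -0.29, so Kcnk3 was 0.73 above that median. None of 9 alpha-cell markers was listed, so the cell label could not be checked there, and Ins1, Ins2 and Iapp summed to 251 and 304 UMIs per cell in the knockout columns and 434 in the control.

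Kcnk3 had far fewer UMIs per cell in beta cells, without scaling for depth between the cell types. It had 0.0466 UMIs per knockout beta cell and 0.00603 per control beta cell, from 38 and 5 UMIs, a ratio of 7.73 [3.04 to 25.2]. The beta-cell level was 5.51% of the alpha-cell mean in the knockout and 0.962% in the control. Alpha-cell markers differed in the same beta cells: 5 of 9 were listed, all higher, and summed to 114 UMIs per knockout cell and 49.3 per control cell, with Gcg, the glucagon gene, at a ratio of 2.30 and Irx2, an alpha-cell transcription factor gene, at 6.71. Most other lists were higher as well, with 66.2 against 40.0 UMIs per cell for 4 of 6 delta-cell markers, 107 against 21.7 for 2 of 3 PP and epsilon-cell markers, and 22.6 against 0.0639 for 3 of 4 red-cell genes, knockout against control. Duct markers (4 of 6 listed) summed to 70.3 UMIs per knockout cell and 38.4 per control cell, and endothelial Pecam1 (1 of 4) to 0.362 and 0.176. The acinar gene Reg3b (1 of 6) had 0.114 UMIs per knockout cell and 0 in the control, and immune markers (4 of 6, 3 of them higher) summed to 0.564 per knockout cell and 0.641 per control cell. Whether transcripts of other cells add to the rare channels, which include Kcnk3, Kcnj5 and Kcnc2, was not tested.

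**Figure D4:**
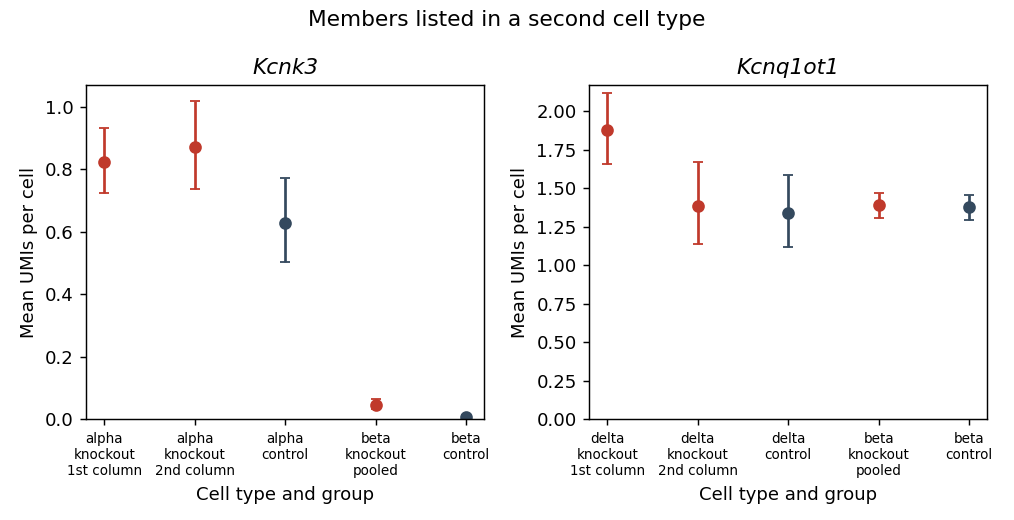
Mean UMIs per cell of Kcnk3 in alpha and beta cells and of Kcnq1ot1 in delta and beta cells, for each column of the tables; bars are exact 95% Poisson intervals of the counts. Kcnk3 is near 0 in beta cells and above 0.6 in alpha cells, and the first knockout column of Kcnq1ot1 in delta cells stands above the others.

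In delta cells the single name listed was Kcnq1ot1 (mm10 chromosome 7, 143203458 to 143296549, minus strand), the noncoding RNA. It had 1.88 and 1.38 UMIs per cell in the first and second knockout column and 1.34 in the control. The second column was level with the control, at a ratio of 1.04 [0.797 to 1.34], and the first was above it at 1.40 [1.14 to 1.74]. The spread between the knockout mice (mean 1.63 ± 0.348, SD, n = 2) exceeded the distance of their mean from the control, and the quasi-likelihood test of edgeR on 231 genes gave an adjusted p of 0.552, calling 28 higher and 22 lower genes (21.6%). Of 6 delta-cell markers only Rbp4 was listed, at 84.2 and 69.1 UMIs per cell in the knockout columns and 137 in the control. Of 9 alpha-cell markers 3 were listed, and only 2 of them were higher. These 3 summed to 165 and 67.4 in the knockout columns and 14.1 in the control. The part of other cells in the Kcnq1ot1 values was not tested. Without scaling for depth, this RNA had 1.34 UMIs per control delta cell and 1.38 per control beta cell, which does not show equal expression.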

How the data were processed

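Islets of 2 knockout mice and 1 control mouse were isolated, cultured overnight and dissociated, and droplet libraries were made with the 10X Genomics system, per the labels' protocols. Per the submitters' processing notes, Cell Ranger 3.0.0 and the build mm10 were used; the filtering and typing of cells, the handling of doublets and free RNA, the use of strand and the test run over cells were not stated in any source at hand. The authors deposited, for each cell type, a table of the genes they listed as different, with signal values that are mean UMIs per cell; the cell number of each column was taken as the smallest that made its values whole UMIs within 0.001, which held for 99.99% of genes in control beta cells and 100% in every other column. The deposited p-values and q-values come from cells and were not used as evidence; largest q in the beta table was 0.00998. Knockout columns of the alpha and delta tables were not matched to particular mice. The edgeR p-values rest on the spread between the 2 knockout columns, shared across listed genes, and on no spread among control mice.

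From these values the UMIs, ratios without a pseudocount, exact intervals (Clopper-Pearson for a ratio, Poisson for a single level) and medians were computed with Python 3.11.15 and scipy 1.17.1. Genes with no UMI in 1 group (103 in beta cells) were set to a floor of 3 UMIs over that group. Neither interval nor floor covers more than counting error. Level ranges used the mean of both groups. edgeR 4.0.16 (R 4.3.3; glmQLFit, log cell number as offset, all genes of the table, Benjamini-Hochberg adjustment) was an alternative for alpha and delta cells, tested on simulated data. All 48 members were found by identifier in GENCODE M21, where 21 overlap another gene.

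The members and lists were chosen with earlier results of these data known. Any member could be named; full values were given for the 10 highest and lowest ratios among members with at least 30 UMIs, the 2 highest and lowest of each group, fixed beta-cell channel genes and, of the partner list, the 4 at each end with Abcc8 and Slc2a2. Some genes that this rule takes are not reported here, and they are left out of the plot of levels by gene, but all counts and medians include them.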

Additional observations from a re-analysis of the deposited data

How the results depend on the processing

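No paired analysis was possible because the labels give no replicate numbers and there was 1 control mouse. The count of 31 higher members was 20 after centring on the median of all listed genes, 20 with a pseudocount of 0.0519 UMIs per cell, and 10 for members with at least 0.1 UMIs per cell; it ran from 22 to 42 under the other alternatives. The 1 lower gene, Trpm5, was lower by the fold in all 8 alternatives. Those that only select members, by UMIs, level or pore-forming role, could not change its ratio. The members' median log2 ratio of 0.86 was 0.32 after centring, 0.0714 relative to genes of similar level and 0.42 at or above 0.1 UMIs per cell, the last 2 choices being made after seeing the data, as was the count at that level. After centring, the medians were 0.31 for HCN, 0.67 for calcium, 0.22 for chloride and 0.49 for sodium genes, and of the opposite sign for TRP genes (-0.30), the partner list (-0.0293) and Kcnq1ot1 in delta cells (-0.13), since the median of each table was subtracted; for Kcnk3 in alpha cells the log2 ratio became 0.73. Scaling to the listed total shifted every beta-cell log2 ratio by 0.35, giving 0.59 for TRP, 1.56 for calcium, 1.38 for sodium and 0.86 for partner genes, and in the other cells 0.61 for Kcnk3 and 0.64 for Kcnq1ot1. Without Ins1, Ins2 and Iapp in that total the shift was -0.27, giving -0.0287 for TRP, 0.94 for calcium and 0.24 for partner genes. The calcium median was 0.96 at 30 UMIs or more, and the pseudocount gave 0.53 for calcium, 0.45 for potassium, 0.62 for sodium genes and 0.35 for Kcnk3. Without either knockout column, the log2 ratio ran from 0.39 to 0.47 for Kcnk3 and from 0.05 to 0.49 for Kcnq1ot1. Depth limits the 19 members with under 30 control UMIs, whose ratios have wide intervals.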

Other observations

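Channel and pore genes outside the name rule were listed in beta cells too, chosen here after the values were seen. The 10 genes found for ionotropic receptors and aquaporins were all higher, 6 of them by the fold of 1.5, in a table where 7780 of 8193 genes were higher and 45.7% were past that fold, with a median log2 ratio of 0.73 beside 0.54 for all listed genes. Aqp4, a water channel, had 0.353 UMIs per knockout cell and 0.0374 per control cell, a ratio of 9.45 [6.51 to 14.2]. Gria2, an AMPA-type glutamate receptor subunit, had 0.114 UMIs per knockout cell and 0.0253 per control cell (ratio 4.5 [2.78 to 7.62]), and Glrb, the glycine receptor beta subunit, had 0.137 and 0.0519 (2.65 [1.85 to 3.86]). Chrnb2, a nicotinic receptor subunit, and P2rx4, an ATP-gated channel, were near the control at 1.24 [1.02 to 1.5] and 1.21 [1.04 to 1.42].

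Trpm5 has neighbours on chromosome 7 that differed in other ways, a comparison also made after the values were seen. Of 6 other listed genes within 500 kb of Trpm5 on either side, 5 were higher and 1 was lower. Among all listed genes, 7780 of 8193 were higher. Cd81, a surface tetraspanin gene that ends 1218 bases from Trpm5, had 4.31 UMIs per knockout cell and 0.630 per control cell, a ratio of 6.84 [6.24 to 7.51]. Ins2, an insulin gene, was the lower one at 0.684 [0.683 to 0.685], Tssc4 was at 1.01 [0.924 to 1.11], Kcnq1ot1, 108815 bases away, at 1.01 [0.929 to 1.1], and Nap1l4 at 1.39 [1.24 to 1.56]. Ascl2 had 7 UMIs over all knockout cells and 0 over all control cells.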
